A study of Mus musculus with 202 samples.

Results

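Messenger RNA of 8 enzymes that make serine, asparagine, cysteine and one-carbon units was followed cell by cell in a line of mouse pancreatic ductal adenocarcinoma. The enzymes were Phgdh, Psat1, Psph, Asns, Cth, Shmt2, Mthfd2 and Aldh1l2. They were taken by gene symbol without a filter on their values, and all 8 stood among the 28987 genes of the table. The choice was made with earlier results of these data known. The line was of the KPC strain, as the labels name it, and came from a liver metastasis of a male mouse. The cells were grown in DMEM with 10% fetal bovine serum, detached with trypsin, stained for the adhesion protein E-cadherin and sorted. The sort gave an E-cadherin-negative fraction, labelled Ecad-, and an E-cadherin-positive fraction, labelled Ecad+, with no other treatment and no other difference in the labels.

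Serine is built from a glycolytic intermediate by PHGDH, PSAT1 and PSPH acting in that order. In mitochondria SHMT2 splits serine into glycine and a one-carbon unit carried on folate, MTHFD2 oxidises that unit towards formate, and ALDH1L2 can release it as carbon dioxide while making NADPH. ASNS makes asparagine from aspartate and glutamine, and CTH releases cysteine from cystathionine. Genes of these enzymes are known targets of ATF4, a transcription factor whose protein is made at a higher rate when the translation factor eIF2alpha is phosphorylated. The level of Atf4 mRNA is therefore not a measure of ATF4 protein. DMEM as a basal medium holds serine and glycine but no asparagine.

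There were 98 Ecad- and 104 Ecad+ libraries, each labelled as a cell of its own. The library names carry 1 of 3 endings, called library sets 1 to 3 here, whose meaning is not stated. Of all pairs of libraries, 5 correlated over 0.97 across all genes (1 Ecad- and 4 Ecad+ pairs) and were averaged, so 97 Ecad- and 100 Ecad+ cells entered the comparison. Whether such a pair is 1 cell could not be tested, since that takes read counts. Library numbers were higher in every Ecad- than in every Ecad+ library, so library position and sorted group cannot be told apart. Since separate cultures or animals are named nowhere in the labels, each sorted group counts as 1 sample and the groups could not be tested. The SD, quartiles and intervals below describe cells, and the 3 library sets show how far a ratio varied within the data. Levels are TPM, transcripts per 1000000, which are corrected for length but keep no read depth, so the depth is unknown. A log2 ratio is log2 of the Ecad- mean over the Ecad+ mean with 1 TPM added to each. Cdh1, the gene of the sorted protein, had means of 16.1 TPM in Ecad- against 37.9 TPM in Ecad+ cells. The keratins Krt8, Krt18 and Krt19 were above 0 in 96, 96 and 83 of 97 Ecad- cells, against 100 of 100 Ecad+ cells each. Of 8 ductal epithelial markers above the floor defined below, 5 were called lower in Ecad- cells, against 4.14% of all genes above it. The median log2 ratio of the 8 was -1.13. Krt19 averaged 290.0 TPM in Ecad- against 899 TPM in Ecad+ cells, and Krt7 162 TPM in Ecad- against 650 TPM in Ecad+ cells. Cldn7 was above 0 in 46 of 97 Ecad- cells, against 95 of 100 Ecad+ cells. Summed levels of 10 fibroblast, 8 endothelial and 10 acinar and endocrine markers had medians of at most 0.411 TPM in either group. The leukocyte marker Ptprc was at 0 in every cell and Alb of hepatocytes in all but 1 cell, while 2 of 9 immune and 3 of 10 hepatocyte markers passed the floor. The lysosomal marker Cd68 was called higher, with 30.0 TPM in Ecad- against 6.35 TPM in Ecad+ cells, and Cd14 had 36.6 TPM in Ecad- against 67.8 TPM in Ecad+ cells. Of the hepatocyte markers 0 were called higher and 1 lower, Hnf4a, with 4.92 TPM in Ecad- against 11.2 TPM in Ecad+ cells. When the cells of low mitochondrial share described next were left out, 2 were called higher and 0 lower. Summed over each list, immune markers ran from 0 to 481 TPM in Ecad- cells with a median of 36.1 TPM, and from 0.340 to 334 TPM in Ecad+ cells with a median of 44.9 TPM. Hepatocyte markers had medians of 10.7 TPM in Ecad- cells (0 to 652 TPM) and 15.1 TPM in Ecad+ cells (0.723 to 233 TPM). The median share of TPM from mitochondrially encoded genes was 8.78% in Ecad- and 30.0% in Ecad+ cells. This share was under 1% in 40 of 97 Ecad- cells, against 1 of 100 Ecad+ cells. Ecad- cells had a median of 8694 genes above 0, against 10338 in Ecad+ cells. Since TPM is relative within a cell, ratios without the cells under 1% stand beside those of the enzymes and of some other genes. The part of the differences in mitochondrial share and in genes above 0 in the results was not tested.

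Asns, Psph and Cth were at least 2-fold higher in Ecad- cells in each of the 3 library sets. Mthfd2, Aldh1l2 and Shmt2 had smaller ratios, and Phgdh and Psat1, the entry enzymes of serine synthesis, were at nearly the same mean in both groups. A log2 ratio of at least 1 in either direction was taken as a call. By this rule 3 of 8 enzymes were called higher and 0 lower, against 14.2% of the 7227 genes above the expression floor called higher and 4.14% called lower. A ratio of at least 1 in each of the library sets was found for the same 3 enzymes, against 5.00% of all genes. The floor was a mean of 5 TPM and a value above 0 in 10% of cells. Of the enzymes 7 passed it, and Aldh1l2 did not. The median log2 ratio of the 8 enzymes was 0.88, against 0.31 for all genes above the floor. Within library sets 1, 2 and 3 the medians were 0.42, 1.10 and 1.38 for the enzymes and 0.16, 0.44 and 0.26 for all genes. Without cells under 1% mitochondrial TPM the medians were 0.86 and 0.14, and Asns, Psph and Cth were again the enzymes at 1 or more, against 4.94% of all genes called higher and 3.00% called lower.

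**Figure D1:**
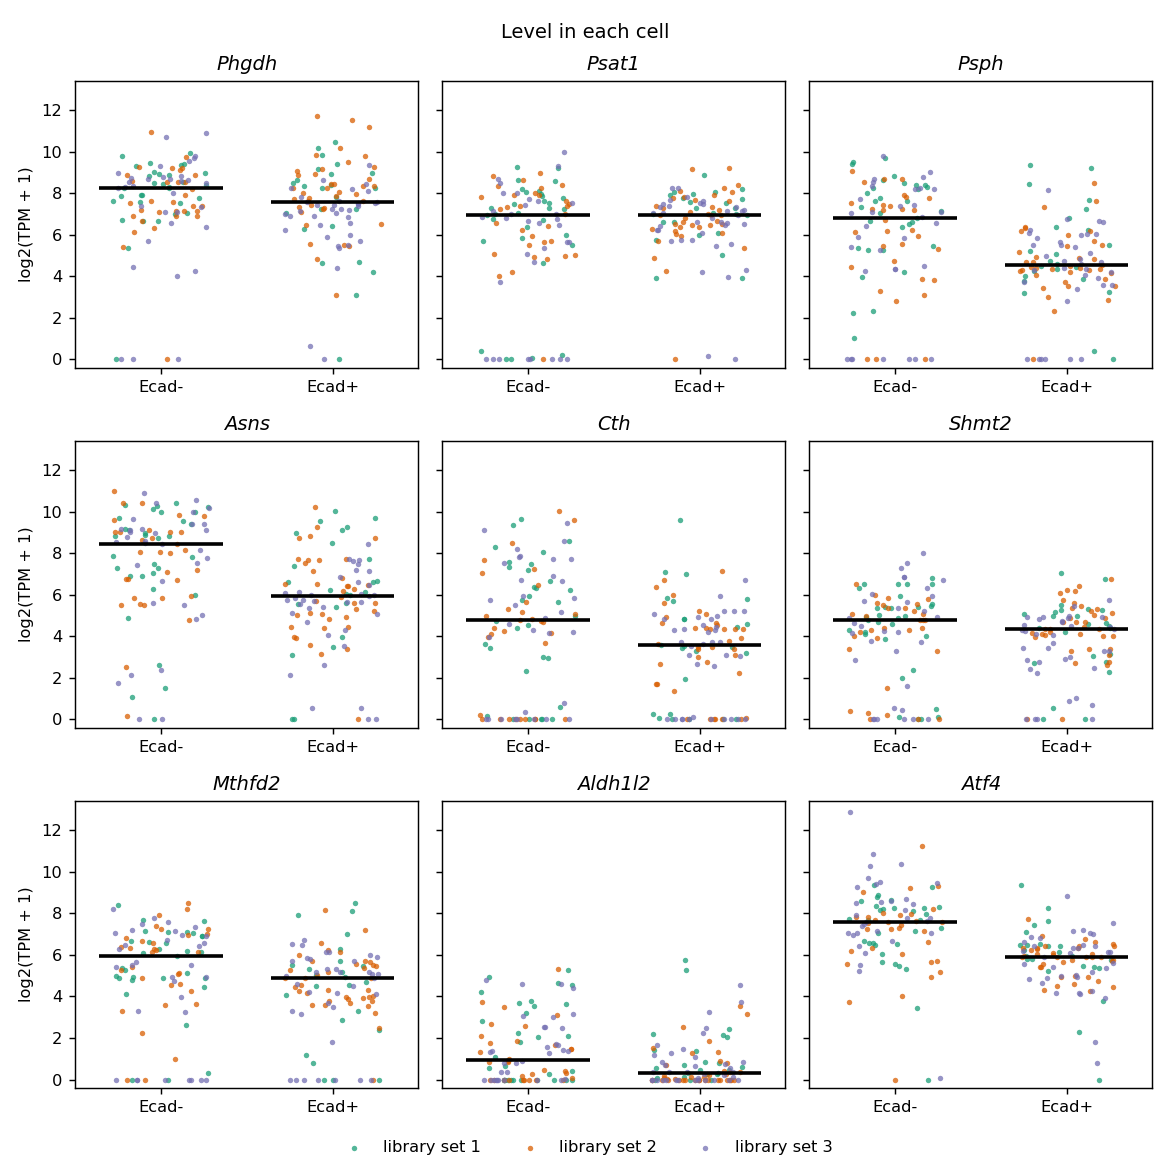
Level of each enzyme gene and of Atf4 in single cells, as log2(TPM + 1), with Ecad- cells left and Ecad+ cells right in each panel; points are cells coloured by library set and black lines are medians over the 97 Ecad- and 100 Ecad+ cells. The median line stands higher in Ecad- cells for every gene shown except Psat1, where it is at the same height. The ranges of the groups overlap for every gene.

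**Figure D2:**
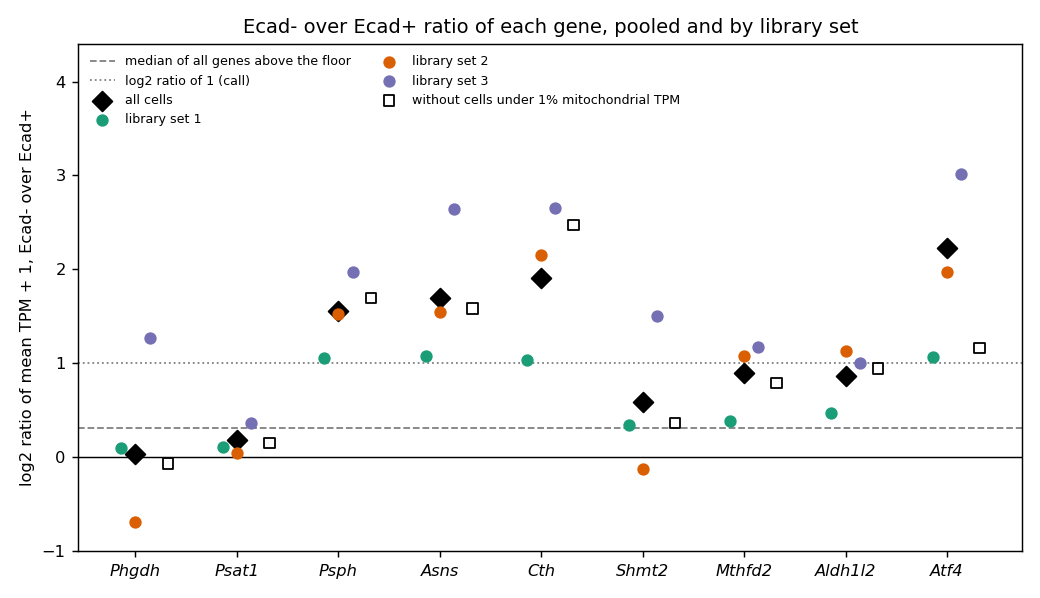
Log2 ratio of mean TPM + 1, Ecad- over Ecad+, for each gene; diamonds are all cells, coloured circles are library sets 1 to 3 and open squares leave out cells under 1% mitochondrial TPM. Psph, Asns, Cth and Atf4 lie above 1 in each set, and Phgdh spans -0.69 in set 2 to 1.27 in set 3.

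Phgdh, the dehydrogenase that commits the glycolytic intermediate to serine, was the most abundant of the serine synthesis genes in both groups. Its level ran from 0 to 1984 TPM in Ecad- cells with a median of 299 TPM, and from 0 to 3416 TPM in Ecad+ cells with a median of 192 TPM. The groups overlapped over nearly their whole range. The means were 357 ± 353 TPM in Ecad- against 349 ± 529 TPM in Ecad+ cells (SD over cells), a log2 ratio of 0.03. The ratio had no stable sign, with 0.09, -0.69 and 1.27 in library sets 1, 2 and 3, -0.07 without cells under 1% mitochondrial TPM and 0.64 for the difference of medians of log2 values. Few cells weighed on the Ecad+ mean, as the 5 highest of 100 cells gave 32.3% of the summed Phgdh level and 4 of those 5 were in library set 2. Phgdh was above 0 in 92 of 97 Ecad- cells, against 98 of 100 Ecad+ cells. Values of Phgdh are less certain than those of the other enzymes, because 56.3% of the 31-base words in its annotated transcripts also occur in other genes, mostly processed pseudogenes. Of 24 genes that share at least 1% of these words, 8 pseudogenes stand in the table, and adding their levels left the log2 ratio at 0.04. Their means were at most 0.265 TPM in either group, so this sum could hardly move the ratio. Gm7901, which shares the most words at 44.8%, is not in the table. The effect of the shared words on Phgdh was therefore not tested.

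Psat1, the aminotransferase of the next step, had the same median in both groups. It ran from 0 to 1004 TPM in Ecad- cells with a median of 123.0 TPM, and from 0 to 592 TPM in Ecad+ cells with a median of 123.1 TPM. The quartiles were wider in Ecad- cells, at 33.0 and 226 TPM, than in Ecad+ cells, at 70.4 and 185 TPM. Means were 159 ± 169 TPM and 140.4 ± 107 TPM in Ecad- and Ecad+ cells (SD over cells), a log2 ratio of 0.18, below the 0.31 of the all-gene median. In the library sets the ratio was 0.10, 0.05 and 0.36, and it was 0.15 without cells under 1% mitochondrial TPM. Psat1 was listed at 0 in 11 of 97 Ecad- cells, against 2 of 100 Ecad+ cells. The means of log2 values differed by -0.63, Ecad- minus Ecad+. Of the 11 cells, 6 were among the 40 Ecad- cells under 1% mitochondrial TPM.

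Psph, the phosphatase that completes serine, was higher in Ecad- cells. Its level ran from 0 to 892 TPM in Ecad- cells with a median of 112 TPM, and from 0 to 651 TPM in Ecad+ cells with a median of 22.4 TPM. The ranges overlapped, but 49 of 97 Ecad- cells, or 50.5% (exact Clopper-Pearson 95% interval 40.2% to 60.8%), lay above the 90th percentile of Ecad+ cells at 107 TPM. The interval covers only the counting of cells. Means were 169 ± 189 TPM in Ecad- against 57.0 ± 103 TPM in Ecad+ cells (SD over cells), 2.97-fold and a log2 ratio of 1.56. It was 1.05, 1.52 and 1.97 in the library sets and 1.70 without cells under 1% mitochondrial TPM. Shares of cells above 0 were close, at 87 of 97 Ecad- and 92 of 100 Ecad+ cells, so the groups differed in level more than in detection. Psph overlaps Cct6a, a chaperonin subunit gene on the other strand, over 452 exon bases, and the libraries do not mark strand. Cct6a itself had means of 198 TPM in Ecad- against 196 TPM in Ecad+ cells.

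Asns was the most abundant of the 3 called enzymes. It ran from 0 to 2048 TPM in Ecad- cells with a median of 352 TPM, and from 0 to 1195 TPM in Ecad+ cells with a median of 61.5 TPM. The lower quartile of Ecad- cells, 76.8 TPM, stood above the Ecad+ median. Means were 453 ± 459 TPM in Ecad- against 139.7 ± 217 TPM in Ecad+ cells (SD over cells), 3.24-fold and a log2 ratio of 1.69. It was 1.08, 1.54 and 2.64 in the library sets and 1.58 without cells under 1% mitochondrial TPM. The Ecad- mean was alike in the sets, at 469, 413 and 465 TPM, and the Ecad+ mean was 221, 140.8 and 73.9 TPM. The spread of this ratio of means over sets thus lay in the Ecad+ mean, where the 5 highest of 100 cells gave 31.8% of the sum. Set medians were 422, 268 and 370 TPM in Ecad- and 72.2, 57.8 and 52.4 TPM in Ecad+ cells. Asns was above 0 in 94 of 97 Ecad- against 95 of 100 Ecad+ cells, and none of its 31-base words occurs in another annotated gene.

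Cth, the cystathionine lyase, had the largest ratio of the 8 and an uneven level. It ran from 0 to 1050.4 TPM in Ecad- cells with a median of 26.8 TPM and an upper quartile of 118 TPM. In Ecad+ cells it ran from 0 to 773 TPM with a median of 11.1 TPM and an upper quartile of 27.2 TPM. Means were 109 ± 195 TPM in Ecad- against 28.3 ± 80.5 TPM in Ecad+ cells (SD over cells), 3.85-fold and a log2 ratio of 1.91. It was 1.03, 2.15 and 2.65 in the library sets and 2.47 without cells under 1% mitochondrial TPM. The 5 highest cells gave 37.7% of the summed level in Ecad- and 45.2% in Ecad+ cells. Cth was above 0 in 75 of 97 Ecad- cells, against 80 of 100 Ecad+ cells, so the lower quartile was under 2 TPM in both groups, and the difference lay in the upper part of the distribution. Cbs, which makes the cystathionine that CTH cleaves, was below the floor, with means of 2.53 TPM in Ecad- against 4.16 TPM in Ecad+ cells.

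The mitochondrial one-carbon genes had smaller ratios. Mthfd2 ran from 0 to 361 TPM in Ecad- cells with a median of 60.4 TPM, and from 0 to 359 TPM in Ecad+ cells with a median of 28.5 TPM. Its means were 78.5 ± 78.6 TPM in Ecad- against 41.9 ± 58.9 TPM in Ecad+ cells (SD over cells), a log2 ratio of 0.89, and 0.38, 1.08 and 1.17 in the library sets. The ratio was 1.13 with a trimmed mean and 0.79 without cells under 1% mitochondrial TPM, so Mthfd2 lay near the call. Shmt2 had medians of 26.3 TPM in Ecad- cells (0 to 255 TPM) and 19.4 TPM in Ecad+ cells (0 to 131 TPM). Its means were 36.1 ± 42.0 TPM in Ecad- against 23.7 ± 23.6 TPM in Ecad+ cells (SD over cells). Its log2 ratio of 0.59 was -0.13 in library set 2, 0.34 in set 1 and 1.50 in set 3, so its sign was not shared by the sets. Without cells under 1% mitochondrial TPM the ratio of Shmt2 was 0.36. Aldh1l2 was scarce, with means of 4.68 ± 8.30 TPM in Ecad- against 2.12 ± 6.96 TPM in Ecad+ cells (SD over cells), medians of 0.899 TPM and 0.227 TPM, and a log2 ratio of 0.87, or 2.21-fold without the added 1 TPM. The log2 ratio was 0.94 without cells under 1% mitochondrial TPM. Aldh1l2 was above 0 in 68 of 97 Ecad- and 66 of 100 Ecad+ cells. The 5 highest cells gave 34.5% of its sum in Ecad- and 63.8% in Ecad+ cells. Aldh1l2 shares 1056 exon bases with D10Wsu102e on the other strand, which had means of 3.20 TPM in Ecad- against 4.23 TPM in Ecad+ cells, so reads of the pair cannot be told apart there.

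Related folate genes, of the cytosol and of mitochondria alike, were not called in either direction. Shmt1, the cytosolic form of Shmt2, had means of 44.4 TPM in Ecad- against 43.6 TPM in Ecad+ cells, for a log2 ratio of 0.02. Its ratio was -0.48 without cells under 1% mitochondrial TPM. Its medians were 17.6 TPM in Ecad- against 33.0 TPM in Ecad+ cells. Shmt1 was above 0 in 76 of 97 Ecad- cells, against 95 of 100 Ecad+ cells. Mthfd1, the cytosolic folate enzyme of several activities, was lower, with 7.89 TPM in Ecad- against 14.3 TPM in Ecad+ cells. Its log2 ratio of -0.78 was -0.34, -0.85 and -1.38 in the library sets and -0.39 without cells under 1% mitochondrial TPM. Mthfd2l, a mitochondrial relative of Mthfd2, stood at 0.17 with 7.96 TPM in Ecad- against 6.94 TPM in Ecad+ cells. Mthfd1l, which releases formate in mitochondria, was below the floor at 3.15 TPM in Ecad- against 2.52 TPM in Ecad+ cells. Aldh1l1, the cytosolic form of Aldh1l2, was above 0 in 2 of 97 Ecad- cells and 7 of 100 Ecad+ cells.

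A ratio of 2 genes within the same cell does not depend on how much of the TPM other genes take, apart from the 1 TPM added. The median log2 ratio of Psph over Phgdh was -1.35 in Ecad- cells (interquartile range -2.68 to -0.18) and -2.82 in Ecad+ cells (interquartile range -3.71 to -1.54). Within library sets 1, 2 and 3 it was -1.11, -1.49 and -1.53 in Ecad- cells, against -1.73, -3.50 and -2.50 in Ecad+ cells. Psph was thus higher relative to Phgdh in Ecad- cells of each set. Psph exceeded Psat1 in 49 of 97 Ecad- cells, against 8 of 100 Ecad+ cells. Asns over Psat1 had a median of 1.45 in Ecad- cells (interquartile range 0.34 to 2.28) and of -0.55 in Ecad+ cells (interquartile range -1.91 to 0.29). Asns was the higher of the pair in 76 of 97 Ecad- against 35 of 100 Ecad+ cells. Cth over Phgdh had medians of -2.61 in Ecad- and -4.18 in Ecad+ cells. Without cells under 1% mitochondrial TPM the medians were -1.20 and -2.83 for Psph over Phgdh and 0.84 and -0.56 for Asns over Psat1, in Ecad- and Ecad+ cells in this order. Psat1 over Phgdh, the first steps against each other, had medians of -1.29 in Ecad- and -0.81 in Ecad+ cells, with the opposite order in set 2, at -0.73 in Ecad- and -1.20 in Ecad+ cells. Without cells under 1% mitochondrial TPM it was -0.89 in Ecad- and -0.81 in Ecad+ cells. Mitochondrial over cytosolic folate genes were compared in the same way. Mthfd2 over Mthfd1 had a median of 3.23 in Ecad- and 0.89 in Ecad+ cells. Without cells under 1% mitochondrial TPM this was 1.83 in Ecad- and 0.89 in Ecad+ cells. Mthfd1 was at 0 in 35 of 97 Ecad- cells, against 3 of 100 Ecad+ cells. Where both genes were above 0, in 57 Ecad- and 89 Ecad+ cells, the medians were 2.81 and 1.06. Shmt2 over Shmt1 had medians of -0.08 in Ecad- and -0.96 in Ecad+ cells. Where both were above 0 these were -0.52 and -0.95.

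**Figure D3:**
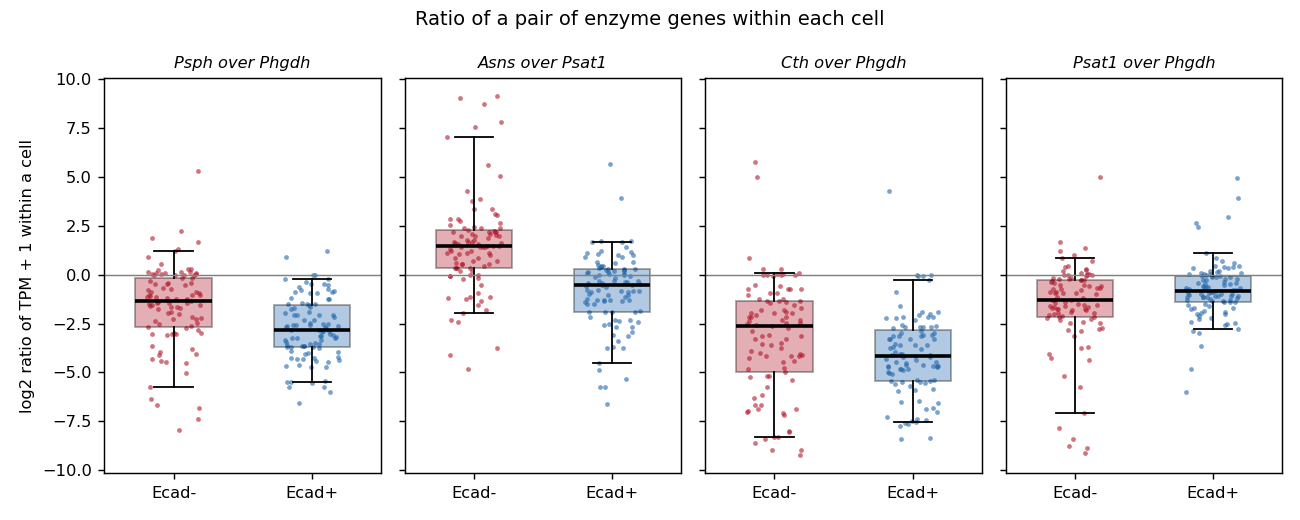
Log2 ratio of TPM + 1 of a pair of enzyme genes within each cell, Ecad- left and Ecad+ right; points are cells, boxes span the quartiles with the median, and whiskers run from the 5th to the 95th percentile of cells. Psph over Phgdh, Asns over Psat1 and Cth over Phgdh have higher medians in Ecad- cells, whereas Psat1 over Phgdh has a median of -1.29 in Ecad- and -0.81 in Ecad+ cells.

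In mm10, Asns (ENSMUSG00000029752) lies on chromosome 6 at 7675169 to 7693254, Psph (ENSMUSG00000029446) on chromosome 5 at 129765558 to 129787449 and Phgdh (ENSMUSG00000053398) on chromosome 3 at 98313170 to 98339990, all on the minus strand. The 250 bases before the RefSeq start of 6 of the enzymes, at 7 start sites, were searched on both strands for 3 short motifs. These were TGATGNAA, the core of the composite element of ATF4 and C/EBP factors, CACGTG, the E-box read by MYC among others, and TGACNNNGC, the core of the antioxidant element of NRF2. Asns and Psph were higher in Ecad- cells, while Phgdh had close means and a ratio without a stable sign over the library sets. The upstream stretches of these genes are shown for comparison, with motif matches in capitals. They are RefSeq sequences of build GRCm38.p6 from the minus strand, at chr6:7693210-7693459, chr5:129787254-129787503 and chr3:98339970-98340219. Part of each lies inside the GENCODE span of its gene, and for Psph this is most of the stretch.
Asns: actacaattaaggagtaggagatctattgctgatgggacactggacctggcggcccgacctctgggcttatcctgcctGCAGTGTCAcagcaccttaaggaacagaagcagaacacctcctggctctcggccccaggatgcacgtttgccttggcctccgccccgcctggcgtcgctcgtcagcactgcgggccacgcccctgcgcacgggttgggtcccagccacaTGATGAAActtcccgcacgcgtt
Psph: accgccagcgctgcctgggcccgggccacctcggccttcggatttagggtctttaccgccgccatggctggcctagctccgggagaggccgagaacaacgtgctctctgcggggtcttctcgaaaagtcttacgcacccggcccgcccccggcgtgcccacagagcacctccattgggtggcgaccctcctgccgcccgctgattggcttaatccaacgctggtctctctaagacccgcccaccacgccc
Phgdh: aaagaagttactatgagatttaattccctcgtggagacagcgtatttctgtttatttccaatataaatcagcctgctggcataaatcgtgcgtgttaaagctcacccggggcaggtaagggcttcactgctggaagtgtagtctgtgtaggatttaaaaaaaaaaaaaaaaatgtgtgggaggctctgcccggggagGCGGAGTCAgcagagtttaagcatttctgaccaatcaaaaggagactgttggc
Asns held TGATGAAA from 23 to 16 bases before the RefSeq start, at chr6:7693225-7693232, a match to the first motif. These bases lie inside the GENCODE span of Asns. This motif occurred in 3.45% of 32851 promoter stretches of the same length. Asns and Phgdh each held a match to the third motif, at 172 to 164 and at 53 to 45 bases before the start, on the opposite strand to the gene, and no match overlapped another. That motif occurred in 10.2% of promoter stretches. CACGTG, in 6.02% of them, had no match in the enzymes searched, and neither Psph, Psat1, Shmt2 nor Mthfd2 held any of the motifs in this window. A match is a description of these letters and does not show binding.

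Atf4 mRNA was itself higher in Ecad- cells. It ran from 0 to 7500.4 TPM in Ecad- cells with a median of 193 TPM, and from 0 to 655 TPM in Ecad+ cells with a median of 59.7 TPM. Means were 363 ± 818 TPM in Ecad- against 76.9 ± 84.9 TPM in Ecad+ cells (SD over cells). The log2 ratio was 2.22, with 1.07, 1.97 and 3.02 in the library sets and 1.16 without cells under 1% mitochondrial TPM. To keep this group difference out, the enzymes were set against Atf4 by Spearman correlation over the cells of 1 group and 1 library set at a time, which gave 6 strata of 24 to 39 cells. Cells of a stratum share their library set and differ in unknown depth, and correlations are given as descriptions. Averaged over the 6 strata, the median rho of the 8 enzymes with Atf4 was 0.39, against 0.12 for all genes above the floor. A mean rho of at least 0.3 was found for 6 of 8 enzymes, against 8.33% of 7226 genes. The others were Aldh1l2 and Cth, both at 0.27.

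Asns followed Atf4 most closely, with a mean rho of 0.51 over the 6 strata, rank 18 of 7226 genes. Its rho was 0.62, 0.55 and 0.42 in Ecad- cells of sets 1, 2 and 3, and 0.66, 0.41 and 0.39 in Ecad+ cells. Mthfd2 came next at 0.49, with 0.61, 0.19 and 0.34 in Ecad- and 0.70, 0.46 and 0.63 in Ecad+ cells, followed by Shmt2 at 0.43. Psph stood at 0.39, with a mean of 0.33 in Ecad- and 0.45 in Ecad+ cells. Phgdh stood at 0.26 in Ecad- and 0.50 in Ecad+ cells. Psat1 had the widest gap between the groups, with 0.16, 0.05 and 0.16 in Ecad- cells of the 3 sets, against 0.62, 0.59 and 0.56 in Ecad+ cells. In Ecad+ cells Psat1 and Mthfd2 thus ranked 13 and 12 of 7226 genes by their rho with Atf4, while in Ecad- cells Psat1 ranked 3028. Without cells under 1% mitochondrial TPM the mean rho of Psat1 was 0.33 in Ecad- and 0.58 in Ecad+ cells, and that of Asns was 0.70 in Ecad- and 0.47 in Ecad+ cells. The difference of these correlations between the groups was not tested.

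**Figure D4:**
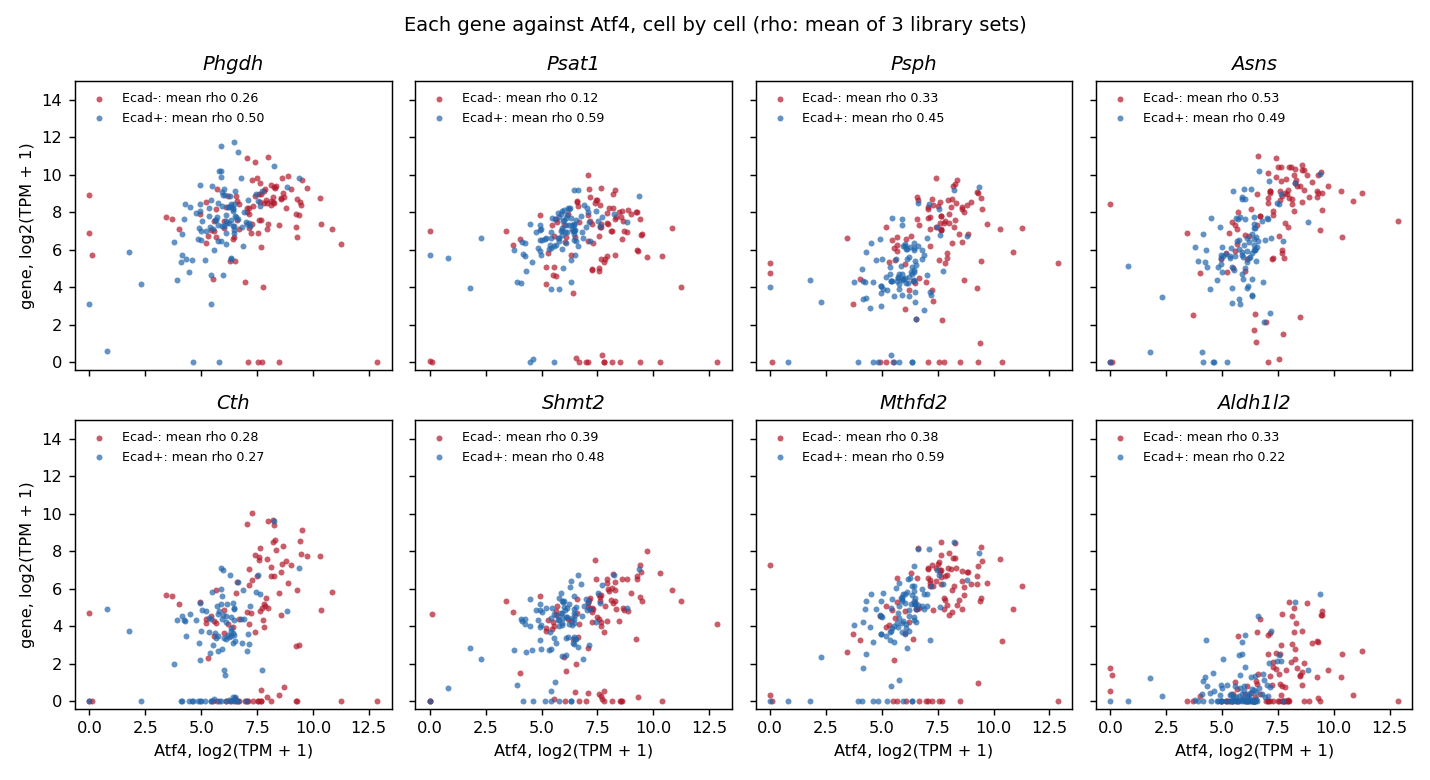
Each enzyme gene against Atf4 in single cells, both as log2(TPM + 1), with Ecad- cells in red and Ecad+ cells in blue; rho is the mean of the Spearman correlations within the 3 library sets. Psat1 and Mthfd2 rise with Atf4 over the Ecad+ cells (mean rho 0.59 each), and in Ecad- cells mean rho is 0.12 for Psat1 and 0.53 for Asns.

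The median mean rho of the 8 enzymes was 0.33 in Ecad- cells and 0.48 in Ecad+ cells, against 0.09 and 0.16 for all genes. A mean rho of at least 0.3 was found for 5 of 8 enzymes in Ecad- cells, against 11.6% of genes there, and for 6 of 8 in Ecad+ cells, against 19.9% of genes there. The enzymes also varied with measures of the whole cell. A score over the enzymes, the mean of their scaled log2 values within a stratum, had a mean rho with the mitochondrial share of -0.32 in Ecad- and -0.45 in Ecad+ cells. Its mean rho with the number of genes above 0 was 0.20 in Ecad- and 0.44 in Ecad+ cells. With the mitochondrial share held constant by partial rank correlation, the median rho of the enzymes with Atf4 was 0.25, against 0.02 for all genes. After each cell was rescaled without mitochondrial and ribosomal protein genes it was 0.27, against 0.02.

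Among themselves all 28 pairs of enzymes had a mean rho above 0 in both groups, against 52.2% of the pairs of all genes above the floor. In each of the 6 strata 26 of 28 pairs were above 0, against 11.1% of all gene pairs. The median over enzyme pairs was 0.49 in Ecad- cells (0.21 to 0.73) and 0.60 in Ecad+ cells (0.24 to 0.75), and over all gene pairs 0.07 in Ecad- and 0.08 in Ecad+ cells. By gene, the mean rho of the enzymes with the mitochondrial share ran from -0.43 for Mthfd2 to -0.10 for Psat1 in Ecad- cells. In Ecad+ cells it ran from -0.50 for Cth to -0.09 for Aldh1l2. The part of this relation in the correlations of enzyme pairs was not tested. Asns and Psph were the closest pair in Ecad- cells at 0.73, and Psat1 and Phgdh in Ecad+ cells at 0.75. Phgdh and Psat1, whose means were close in the groups, varied with enzymes whose means were not: in Ecad- cells Phgdh had a mean rho of 0.62 with Asns and 0.61 with Psph, and Psat1 had 0.59 with Asns and 0.62 with Psph. Aldh1l2, the scarcest, had the weakest pairs, between 0.22 and 0.37 over the 6 strata.

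Candidates were 3778 other genes that averaged 20 TPM or more and were above 0 in 50% of cells, and the 10 closest to the enzyme score over the 6 strata were ranked by mean rho. Gars, Sars, Eprs, Rars and Nars, which encode cytosolic aminoacyl-tRNA synthetases for glycine, serine, glutamate and proline, arginine and asparagine, took 5 of these places, with mean rho of 0.75, 0.67, 0.66, 0.63 and 0.62. The median over all candidates was 0.20. The other genes were the translation initiation factor subunit Eif3c at 0.63, the translational repressor Eif4ebp1 at 0.61, Hax1 at 0.60 and the RNA-binding protein gene Ybx3 and the helicase gene Ruvbl2 at 0.59 each. For Gars the rho was between 0.62 and 0.85 in every one of the 6 strata. Atf4 ranked 80 by this measure at 0.47. Myc, whose protein is also known to drive serine synthesis genes, ranked 28 at 0.54. Its means were 57.1 TPM in Ecad- against 48.7 TPM in Ecad+ cells, with log2 ratios of -0.35, -0.70 and 1.29 in library sets 1, 2 and 3. Nfe2l2, which encodes NRF2, stood at -0.05, Ddit3 at 0.33, Cebpg at 0.47 and the pseudokinase gene Trib3 at 0.50. A proliferation list of 11 genes had a mean rho with the score of -0.07 in Ecad- and 0.29 in Ecad+ cells. Of its genes 10 were called lower in Ecad- cells, against 4.14% of all genes.

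Neighbouring pathways were described by lists of genes chosen for their function. Of all genes above the floor, 14.2% were called higher and 4.14% lower. Without cells under 1% mitochondrial TPM these shares were 4.94% and 3.00%. Of 10 other folate cycle genes above the floor, 0 were called higher and 0 lower, and 8 lay below the all-gene median. Tyms, the thymidylate synthase that uses a one-carbon unit, stood at -0.79 with 94.0 TPM in Ecad- against 164 TPM in Ecad+ cells. The folate polyglutamating enzyme gene Fpgs stood at 0.64, with -0.33 in set 3. Of 9 genes of serine and glycine use, 1 was called lower: Gldc, the glycine decarboxylase, had 9.50 TPM in Ecad- against 21.1 TPM in Ecad+ cells, for a log2 ratio of -1.07 and of -0.66, -0.58 and -2.11 in the library sets, and -0.87 without cells under 1% mitochondrial TPM. Of 10 methionine and transsulfuration genes, 1 was called higher. This was Chac1, which degrades glutathione, with 25.7 TPM in Ecad- against 8.59 TPM in Ecad+ cells and a log2 ratio of 1.48, which was 0.26 in set 1. Of 12 genes of purine synthesis, a pathway that consumes one-carbon units at some of its steps, 1 was called higher. It was Adssl1 at 1.39, with -0.13 in set 2 and 0.19 without cells under 1% mitochondrial TPM. The list median was 0.03.

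Of 14 genes for the synthesis of other amino acids, 1 was called higher, Got1, the cytosolic aspartate aminotransferase, at 1.00 and at 0.29 without cells under 1% mitochondrial TPM. Gpt2, a mitochondrial alanine aminotransferase, stood at 0.73, with -0.21 in set 1. Among 20 cytosolic aminoacyl-tRNA synthetases, 3 were called higher, a share close to the 14.2% of all genes. They were Nars at 1.28, Yars at 1.18 and Sars at 1.06, and the list median was 0.41. Without cells under 1% mitochondrial TPM, Yars was 0.97 and 2 of the 20 were called higher, against 4.94% of all genes. The list median was then 0.44, against 0.14 for all genes. Of 9 amino acid transporters, 4 were called higher, with a list median of 0.91. Slc3a2, the shared heavy chain of several transporters, had 264 TPM in Ecad- against 66.7 TPM in Ecad+ cells, for a log2 ratio of 1.97. The cystine carrier Slc7a11 stood at 1.90, Slc38a7 at 1.61 and the cationic carrier Slc7a3 at 1.61. Without cells under 1% mitochondrial TPM, Slc38a7 was 0.71 and the list median 0.58. Of 13 stress response regulators, 10 were called higher, more than in any other list, with a median of 1.40. With cells under 1% mitochondrial TPM left out, 7 were called higher and the median was 1.16. The largest ratio was that of Ddit3, a transcription factor of the stress response, at 4.13. Of 8 other regulators, Kdm4c alone was called, at 1.31, and it was 0.01 without cells under 1% mitochondrial TPM. The stress response list lies close to the subject of the study.

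**Figure D5:**
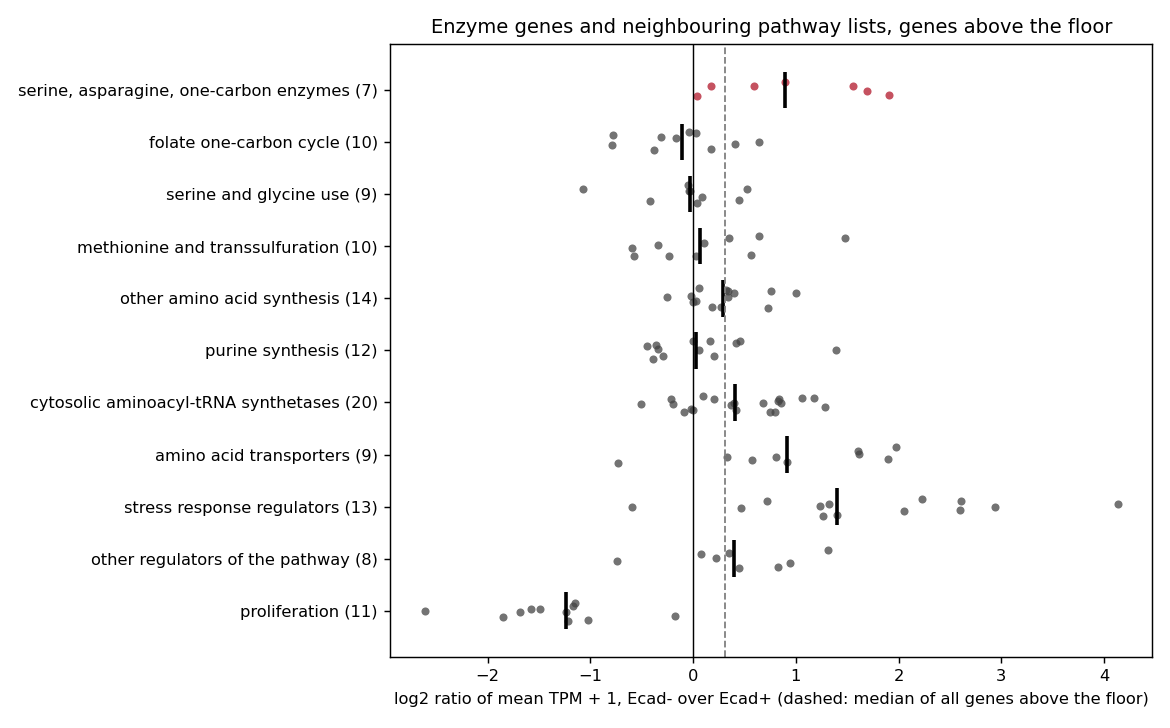
Log2 ratio of mean TPM + 1, Ecad- over Ecad+, for each gene above the floor, by list; the number of such genes stands beside each list, black bars are list medians and the dashed line is the all-gene median of 0.31. The 7 enzymes above the floor run from 0.03 to 1.91, while folate cycle, serine and glycine, and purine lists centre near 0 and the proliferation list at -1.24.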

How the data were processed

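Single cells of the line were captured on a Fluidigm C1 and amplified with SMARTer and Nextera XT chemistry, per the labels' protocols, with neither molecular identifiers nor strand information. FastQC 0.11.5, kallisto and build mm10 are named in the submitters' processing notes. For the transcript index and for filtering of cells, nothing is given in the sources used here. Log2 values for 202 libraries stand in 1 table deposited by the authors. Read as log2(TPM + 1), since each library then summed to between 933711 and 987134 TPM, they were turned back to TPM here. Where a symbol stood on several rows, the most abundant row was used. Libraries correlating over 0.97 were averaged as 1 cell (5 pairs). Within-set ratios used each library in its own set, and correlations gave an averaged cell the set of its first library. Doublets were not assessed.

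Groups came from the labels. Each is 1 sample, so no test was made and a call means a 2-fold ratio of means. The ratio with 1 TPM added understates changes of low genes. Correlations are Spearman's rho within 6 strata, with no p-value. The computations were run in Python 3.11.15 with pandas 2.3.3, numpy 2.4.6 and scipy 1.17.1, and the ratio and correlation code was tested on simulated data. Coordinates are from GENCODE M21 (GRCm38, the assembly of mm10), to which 27458 genes and all 8 enzymes matched by identifier, and its transcripts gave the shared 31-base words. RefSeq promoters matched 6 of the 8. The enzymes, lists and alternatives were chosen with earlier results of these data known. Named genes are the 8 enzymes, Atf4, paralogs, up to 4 genes per list with the largest absolute ratio and the 10 genes closest to the enzyme score. Cbs, Cct6a, D10Wsu102e, Cdh1, keratins and further regulators were named beside them. Some genes that the rule names are not reported here. Alternatives covered pseudocounts, averaging, centring, rescaling, library sets, cell filters and floors.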

Additional observations from a re-analysis of the deposited data

How the results depend on the processing

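No paired analysis was possible because the numbers in the labels count single cells, which have no counterpart in the other group. The library sets hold both groups, and their separate ratios are given in place of it. The number of called enzymes, 3, was 5 with a trimmed mean and 5 without library set 1, where in both cases Mthfd2 and Aldh1l2 passed a log2 ratio of 1, and the count was 3 or 4 under the other 14 alternatives. Asns, Psph and Cth were at 1 or more under all 16 alternatives, with ranges of 1.32 to 2.50, 1.25 to 2.27 and 1.15 to 2.47. Alternatives were compared with the SD over library sets. The median ratio of the enzymes ran from 0.57 to 1.22 and their median rho with Atf4 from 0.25 to 0.48, without a change of sign. Psat1 was below 0 under 4 of 16 alternatives and Phgdh under 5, so neither has a direction. The all-gene median was -0.28 with means of log2 values and 0.0084 after rescaling without mitochondrial and ribosomal protein genes, where the median of the enzymes stood 1.02 and 0.74 above it. Of all genes called, 77.4% were higher in the main comparison, 52.5% after that rescaling, 50.0% after centring, 64.4% with the trimmed mean, 62.2% without cells under 1% mitochondrial TPM, 15.1% with means and 18.1% with medians of log2 values. Leaving out both cells under 1% and the 10% of cells with the fewest genes, chosen after seeing the data, gave 4 enzymes at 1 or more. Rescaling without cells under 1%, also chosen then, gave 3. TPM keeps no depth, so a listed 0 cannot be told from a missed transcript.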

Other observations

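Among cells above 0, the median log2(TPM + 1) of Cth was 5.67 in Ecad- and 4.33 in Ecad+ cells, and that of Psph was 7.11 in Ecad- and 4.69 in Ecad+ cells. Cells at 0 were 22 of 97 Ecad- and 20 of 100 Ecad+ cells for Cth, and 10 of 97 Ecad- and 8 of 100 Ecad+ cells for Psph. For Psat1 the medians above 0 were close, at 7.09 in Ecad- and 6.97 in Ecad+ cells, and cells at 0 were 11 of 97 Ecad- and 2 of 100 Ecad+ cells. For Asns the medians above 0 were 8.51 in Ecad- and 5.99 in Ecad+ cells, with 3 of 97 Ecad- and 5 of 100 Ecad+ cells at 0. All 8 enzymes were above 0 together in 43 of 97 Ecad- cells, against 51 of 100 Ecad+ cells.

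The single Ecad- cell with the highest Atf4, at 7500.4 TPM, stood far above the highest Ecad+ cell at 655 TPM. The 5 highest cells gave 40.9% of the summed Atf4 level in Ecad- and 23.6% in Ecad+ cells.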
